A study of Homo sapiens with 32 samples.

Results

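The 40 NRF2 and antioxidant defence genes described here comprise the transcription factor NRF2 (gene NFE2L2), its inhibitors KEAP1 and BACH1, and the enzymes, transporters and iron-storage proteins that handle oxidants, quinones and reactive carbonyls. Members were chosen by name, as genes of the NRF2 pathway and of antioxidant defence, and matched by Ensembl identifier to the GENCODE symbol. In the count table of 17788 genes, 39 of the 40 were matched, and all 39 passed the filter on low counts that left 14865 genes for testing. SOD2 was not matched to its identifier, and no value is given for it.

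RNA-seq was performed on MCF10A, an immortalized human mammary epithelial cell line that grows as a non-tumorigenic epithelium. The 32 libraries came from 8 groups of 4. These were JUNB wild-type (WT) and JUNB-edited cells that received solvent (0 h of TGFβ1) or TGFβ1 at 5 ng/ml for 6, 24 or 72 h. By the study's text, solvent and TGFβ1 cells were harvested at the same time after seeding. The solvent libraries are therefore not an earlier harvest. All groups grew with horse serum, EGF, hydrocortisone, cholera toxin and insulin, and the solvent was BSA in PBS. The edited cells are labelled JUNB KO in the sample titles and JUNB knock-out as genotype. The study's text calls them mut, the name used below, because a smaller JUNB polypeptide remains at a low level after the extended deletion. Each genotype is represented by 2 single-cell-derived clones (2 and 27 for WT, 1 and 65 for mut), each with 2 replications, so the p-values measure the spread between 4 libraries of 2 clones. A clone and its replication are called a series, such as 27-2. The comparisons ask how TGFβ1, which drives these cells into epithelial-mesenchymal transition, changes the transcriptome and how that depends on JUNB, a subunit of the transcription factor AP-1.

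NRF2 is held low in unstressed cells because KEAP1 presents it to a ubiquitin ligase. When oxidants or electrophiles modify KEAP1, NRF2 accumulates, pairs with a small MAF protein and binds antioxidant response elements (AREs) near genes for glutathione synthesis, thioredoxin recycling, NADPH supply and detoxification. BACH1 competes for many of the same elements and represses HMOX1, the gene for haem oxygenase 1. The ARE core can contain or overlap the site bound by AP-1, and the aldo-keto reductase genes are well-known NRF2 targets in human cells.

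To show the element that defines the pathway, windows from 250 bases before to 50 bases after the transcription start were taken from RefSeq (GRCh38.p14). Windows were matched for 31 of the 40 members (48 windows, since a gene can have several starts), and a gene was counted once if any of its windows held a motif. No window was matched for ABCC1, AKR1B10, FTH1, GSR, HMOX1, PRDX1, PRDX6, SLC7A11 and SOD1. The ARE core, searched as TGACNNNGC on both strands, was found in 11 of the 31 members (35.48%) and in 16.06% of all 27305 genes with a window. The AP-1 site, TGACTCA or its reverse complement TGAGTCA, was found in 5 members (16.13%) and in 6.047% of all genes. In 3 members (9.677%), GSTP1, ME1 and SLC3A2, an AP-1 site lay inside an ARE core, an overlap found in 0.6885% of all genes. Counted by window, the core was in 25% of the members' windows and in 13.35% of all 35116. The 3 overlapping elements are shown first, then a core of GCLM, KEAP1 and EPHX1. Each is written 5′ to 3′ on the gene's strand, and the capitals mark the ARE core or its reverse complement.
SLC3A2 (chr11:62881632-62881698, + strand): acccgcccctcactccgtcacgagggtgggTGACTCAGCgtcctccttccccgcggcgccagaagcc
GSTP1 (chr11:67583716-67583784, + strand): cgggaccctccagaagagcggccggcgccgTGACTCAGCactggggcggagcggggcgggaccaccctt
ME1 (chr6:83431150-83431218, - strand): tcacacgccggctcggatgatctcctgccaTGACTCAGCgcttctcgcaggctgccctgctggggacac
GCLM (chr1:93909431-93909494, - strand): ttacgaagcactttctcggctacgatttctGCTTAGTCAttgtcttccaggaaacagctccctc
KEAP1 (chr19:10502772-10502832, - strand): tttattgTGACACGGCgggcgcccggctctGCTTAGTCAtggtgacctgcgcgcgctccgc
EPHX1 (chr1:225825246-225825314, + strand): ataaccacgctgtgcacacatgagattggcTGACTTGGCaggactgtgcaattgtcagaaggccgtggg
A match of letters is a description and does not show that a factor bound. The element of SLC3A2 began at position -37 from the start, that of GSTP1 at -66 and that of ME1 at -137.

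Library totals ranged from 39702412 to 54651906 counts, so that 3 counts corresponded to 0.0549 to 0.0756 counts scaled to a library total of 1000000 (CPM). Basal epithelial markers were abundant (KRT5 averaged 5781 CPM over the 32 libraries and KRT17 2608 CPM), while the leukocyte genes PTPRC and CD3E and the endothelial gene VWF did not pass the low-count filter. CD68, which macrophages share with other cells, was measured at 5.64 to 24.4 CPM. JUNB counts did not separate the genotypes. Clone means in solvent were 103 and 91.8 CPM in WT clones 2 and 27 and 73.3 and 150 CPM in mut clones 1 and 65, and these counts cannot resolve a deletion within the gene, so WT and mut rest on the labels. Series 27-2 stood apart from the other WT libraries on the third principal component at every time, and the mut series 1-2 stood apart on the first in solvent and at 6 h. Counts of members are therefore also given without the series that stands apart.

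NFE2L2 RNA was higher in mut than in WT cells and fell with TGFβ1 in both genotypes. Libraries are listed throughout in the order clone 2 replication 1, clone 2 replication 2, clone 27 replication 1 and clone 27 replication 2 for WT, and likewise clones 1 and 65 for mut. In solvent NFE2L2 was at 179, 185, 184 and 177 CPM in WT and 243, 245, 191 and 273 CPM in mut. All 4 mut libraries lay above all 4 WT libraries. The difference of 0.38 ± 0.09 on the log2 scale (SE, adjusted p = 0.00318) was called by the test used for every comparison here, limma-voom with Benjamini-Hochberg adjustment over the 14865 genes and a threshold of 0.05.

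After 72 h of TGFβ1 NFE2L2 was at 146, 128, 155 and 147 CPM in WT and 156, 204, 162 and 176 CPM in mut. It was lower than in solvent in each genotype, without overlap in WT. The log2 change was -0.33 ± 0.09 in WT (adjusted p = 0.00196) and -0.44 ± 0.09 in mut (adjusted p = 0.000327). With TMM scaling the WT change was -0.17 and not called (adjusted p = 0.096). The remaining difference between genotypes at 72 h, 0.27 (adjusted p = 0.0136), was not called with TMM scaling (adjusted p = 0.0757) or without series 1-2 (adjusted p = 0.0815). NFE2L2 exons overlap those of AGPS and HNRNPA3 on the other strand, and counting without strand information cannot tell their reads apart there. The same holds for BACH1 (GRIK1), SLC7A11, CBR1 and UGDH (antisense genes), PRDX1 (MMACHC), FTH1 (BEST1) and EPHX1 (TMEM63A), with the overlapping gene in parentheses, and OSGIN1 overlaps MLYCD on the same strand. NFE2L2 and GCLC each also overlap a gene without a symbol on the same strand.

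KEAP1, the adaptor that marks NRF2 for degradation, was at 91.2 to 101 CPM in WT solvent and 76.5 to 83.8 CPM in WT at 72 h. This log2 change of -0.24 ± 0.07 (adjusted p = 0.00282) was close to the shift of all genes and was -0.08 with TMM scaling (adjusted p = 0.345). No KEAP1 difference was called in mut cells or between genotypes. BACH1 was at 51.7 to 58.4 CPM in WT and 41.3 to 56.5 CPM in mut at 72 h, which was its single called difference (log2 -0.24, adjusted p = 0.0391). With TMM scaling its rises in WT at 24 h (log2 0.29) and 72 h (log2 0.37) were also called.

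HMOX1 (chr22, 35380361 to 35394214, + strand, GRCh38), which encodes the enzyme that opens haem to biliverdin, iron and carbon monoxide, showed the largest rise among the members in WT cells. It was at 1.76, 2.97, 1.26 and 1.53 CPM in WT solvent, 10.3, 9.80, 7.33 and 7.45 CPM at 6 h, 22.7, 25.0, 12.02 and 20.4 CPM at 24 h and 12.6, 16.2, 8.77 and 9.75 CPM at 72 h. Every WT library with TGFβ1 exceeded every solvent library, the 24 h libraries being highest in each series. The fold was 4.88 at 6 h (log2 2.29 ± 0.39, adjusted p = 0.000135), 10.7 at 24 h (log2 3.42 ± 0.37, adjusted p = 1.34e-08) and 6.48 at 72 h (log2 2.70 ± 0.38, adjusted p = 1.12e-06).

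In mut cells HMOX1 was at 1.99, 3.19, 2.78 and 1.77 CPM in solvent and 3.36, 2.65, 3.90 and 4.08 CPM at 6 h. It was at 4.23, 4.75, 4.31 and 5.50 CPM at 24 h and 2.69, 3.14, 2.85 and 7.71 CPM at 72 h. Solvent levels overlapped those of WT, and the 24 h libraries lay above the mut solvent libraries. The log2 change in mut was 0.57 at 6 h, 0.99 at 24 h (adjusted p = 0.0523) and 0.63 at 72 h (adjusted p = 0.243). With the series as a block the changes at 24 h (log2 1.03, adjusted p = 0.00199) and 72 h (log2 0.73, adjusted p = 0.0272) were called. Mut cells held less HMOX1 RNA than WT cells at each time with TGFβ1, 2.45-fold at 6 h (log2 -1.30, adjusted p = 0.00276), 4.05-fold at 24 h (log2 -2.02, adjusted p = 1.08e-06) and 3.14-fold at 72 h (log2 -1.65, adjusted p = 4.67e-05).

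The change with TGFβ1 was itself compared between genotypes. For HMOX1 it was smaller in mut by 2.44 ± 0.52 log2 units at 24 h (log2 -2.44, adjusted p = 0.00448) and by 2.07 ± 0.54 at 72 h (log2 -2.07, adjusted p = 0.0115). At 6 h the difference was -1.71 (adjusted p = 0.62), called with the series as a block (-1.62, adjusted p = 0.0482). With the replications summed per clone the adjusted p was 0.0529 at 24 h and 0.0813 at 72 h, and without series 1-2 it was 0.0525 at 72 h.

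**Figure D1:**
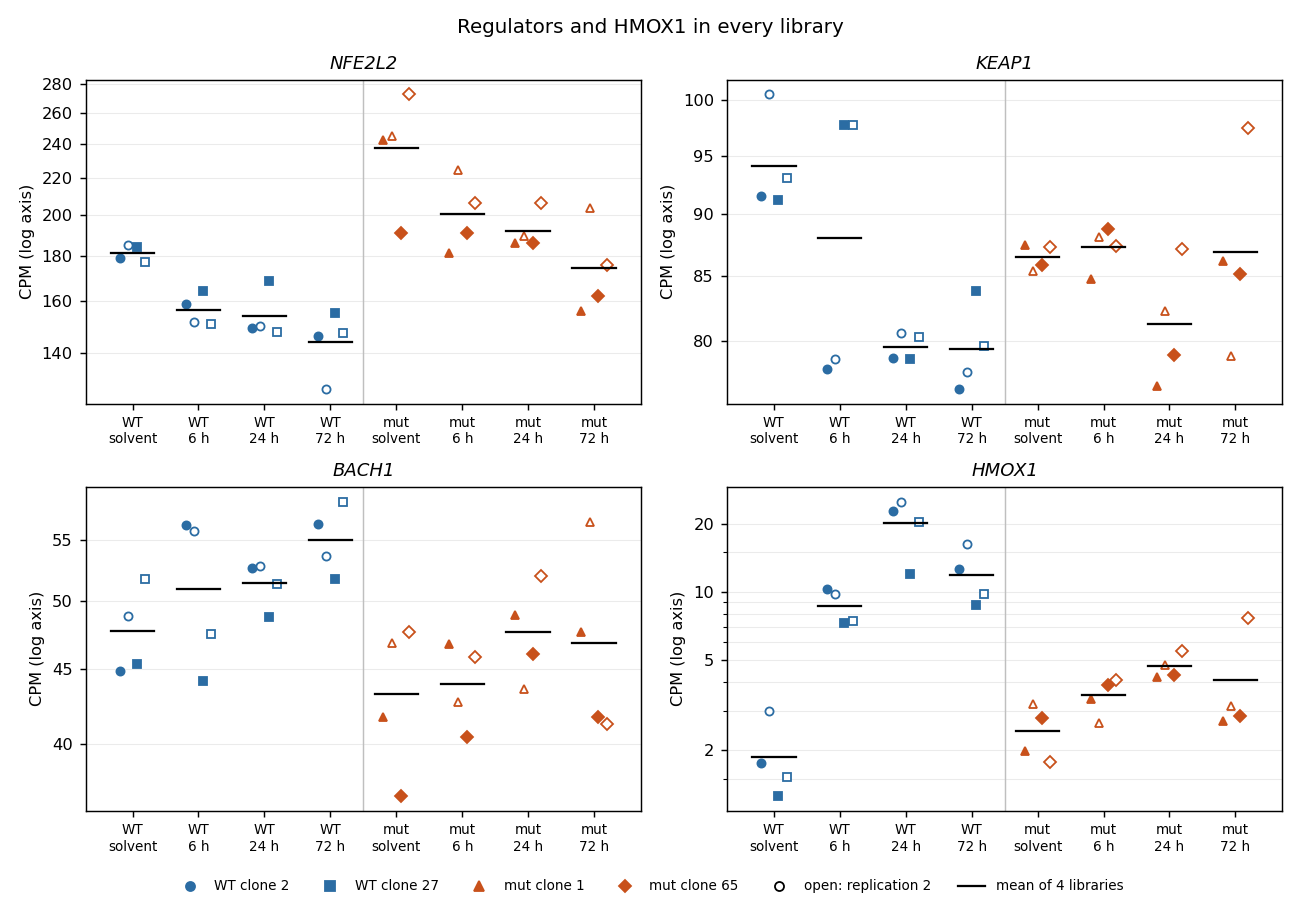
NFE2L2, KEAP1, BACH1 and HMOX1 in CPM (log axes) in the 32 libraries, by genotype and hours of TGFβ1, with marker shape for the clone, filled markers for replication 1, open markers for replication 2 and a line at the mean of 4 libraries. HMOX1 rises from at most 2.97 CPM in WT solvent to 12.02 to 25.0 CPM at 24 h in WT, against 4.23 to 5.50 CPM in mut, while NFE2L2 in solvent is higher in all 4 mut libraries.

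The genes for cystine uptake and glutathione synthesis were led by GCLC, the catalytic subunit of the enzyme that makes γ-glutamylcysteine. GCLC was at 129, 137, 132 and 148 CPM in WT solvent and 76.5, 76.5, 64.7 and 69.6 CPM at 72 h. In mut cells it was at 155, 189, 143 and 172 CPM in solvent and 122, 138, 124 and 139 CPM at 72 h. The groups of each genotype did not overlap, and all 4 mut libraries at 72 h lay above all 4 WT libraries. The fall in WT was 1.90-fold at 72 h (log2 -0.93 ± 0.10, adjusted p = 9.79e-09), and that in mut was -0.33 on the log2 scale (adjusted p = 0.0116, and 0.062 with TMM scaling). At 72 h GCLC was 1.82-fold higher in mut (log2 0.87 ± 0.10, adjusted p = 7.84e-08), and the difference between the changes was 0.60 ± 0.14 (adjusted p = 0.00407).

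GCLM, the modifier subunit of the same enzyme, was at 76.0, 82.4, 89.9 and 83.1 CPM in WT and 89.9, 96.9, 94.9 and 102 CPM in mut at 72 h, and this was its single called difference (log2 0.21, adjusted p = 0.0483, not called with TMM scaling). SLC3A2, the heavy chain that carries several amino acid transporters to the membrane and holds one of the ARE cores with an AP-1 site, was at 813 to 921 CPM in WT solvent and 465 to 667 CPM in WT at 72 h (log2 -0.68 ± 0.13, adjusted p = 4.88e-05). Its mut libraries ranged from 799 to 993 CPM in solvent and from 635 to 1059 CPM at 72 h, and were higher than WT at 72 h (log2 0.55, adjusted p = 0.000954). SLC7A11, the cystine-glutamate exchanger, was at 58.9, 69.3, 71.3 and 52.0 CPM in WT and 85.2, 297, 87.0 and 187 CPM in mut at 72 h. In mut it was higher in the second replication of both clones, and the difference of 1.20 ± 0.38 (adjusted p = 0.0129) was not called without series 1-2 (adjusted p = 0.0697).

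Glutathione reductase, GSR, which regenerates reduced glutathione from NADPH, fell in both genotypes and fell further in WT. Its levels were 129, 147, 134 and 124 CPM in WT solvent, 50.0, 55.7, 56.7 and 58.4 CPM in WT at 72 h, 158, 146, 143 and 128 CPM in mut solvent and 90.7, 79.8, 91.5 and 80.6 CPM in mut at 72 h. The 72 h libraries lay below the solvent libraries in both genotypes. The fall at 72 h was 2.41-fold in WT (log2 -1.27 ± 0.10, adjusted p = 6.49e-11) and 1.68-fold in mut (log2 -0.75 ± 0.09, adjusted p = 1.22e-06), a difference of 0.52 ± 0.14 (adjusted p = 0.0119). Of the peroxidases, GPX4, which reduces lipid hydroperoxides in membranes, was higher in mut in solvent (115 to 125 CPM in WT and 150 to 173 CPM in mut, log2 0.43 ± 0.09, adjusted p = 0.00156) and at all 3 times with TGFβ1. GPX1 was called in no comparison, and GPX2 stayed at or below 0.349 CPM in all libraries.

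In the thioredoxin and peroxiredoxin group of 5, 3 members fell in WT at each time, namely TXNRD1 (thioredoxin reductase), SRXN1 (sulfiredoxin, which repairs overoxidized peroxiredoxins) and PRDX6. With TMM scaling TXNRD1 and SRXN1 were not called at 24 h, nor PRDX6 at 6 h. SRXN1 was at 140, 173, 137 and 141 CPM in WT solvent and 111, 108, 120 and 105 CPM in WT at 72 h, whereas mut libraries ranged from 132 to 154 CPM in solvent and from 126 to 162 CPM at 72 h. The WT groups did not overlap and the mut groups did. The log2 change of SRXN1 at 72 h was -0.41 ± 0.09 in WT (adjusted p = 0.000405), no change was called in mut, and the changes differed by 0.42 ± 0.13 (adjusted p = 0.026, not called with TMM scaling). TXNRD1 was at 174, 231, 192 and 253 CPM in WT solvent and 124, 154, 146 and 154 CPM in WT at 72 h, and at 203, 221, 168 and 184 CPM in mut at 72 h. Its second replication was the higher in both WT clones in solvent, and the WT groups did not overlap. TXNRD1 changed by -0.55 ± 0.15 in WT at 72 h (adjusted p = 0.00255) and was higher in mut at 72 h by 0.42 (adjusted p = 0.0216, not called with TMM scaling). PRDX6 fell at 72 h in both, by 0.53 on the log2 scale in WT (adjusted p = 1.12e-06) and by 0.30 in mut (adjusted p = 0.00328). TXN and PRDX1 were called in no comparison.

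NADPH for these reductases comes in part from the pentose phosphate pathway, and its members PGD, TALDO1 and TKT fell in WT at 24 and 72 h. TKT, transketolase, showed the largest of these changes at 72 h (log2 -0.61 ± 0.09, adjusted p = 3.93e-06), from 999 to 1180 CPM in WT solvent to 675 to 771 CPM, while mut libraries at 72 h ranged from 1008 to 1099 CPM. At 24 h none of these falls was called with TMM scaling. PGD also fell in mut at 72 h (log2 -0.25). TKT, PGD, TALDO1 and malic enzyme ME1 were all higher in mut at 72 h, by 0.57, 0.43, 0.26 and 0.25 on the log2 scale. Under TMM scaling the ME1 difference and the TALDO1 change in WT were not called.

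NQO1, which reduces quinones by a pair of electrons and is the usual reporter of NRF2 activity, was at 635, 760, 656 and 650 CPM in WT solvent and 393, 469, 444 and 365 CPM in WT at 72 h. In mut it was at 762, 849, 778 and 734 CPM in solvent and 727, 724, 655 and 680 CPM at 72 h. All 72 h libraries lay below the solvent libraries in each genotype, with a wide gap in WT. The change in WT was -0.70 ± 0.12 (adjusted p = 1.54e-05), and that in mut was -0.16 (adjusted p = 0.336). NQO1 was 1.67-fold higher in mut at 72 h (log2 0.74 ± 0.12, adjusted p = 1.36e-05). The difference between the changes, 0.53 ± 0.17 (adjusted p = 0.0348), was not called with TMM scaling (adjusted p = 0.11) or without series 27-2 (adjusted p = 0.0744).

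FTH1, the heavy chain of the iron store ferritin, was the member with the highest level per kilobase of exon (a mean of 906 CPM per kb over the 32 libraries, followed by GSTP1 with 570 CPM per kb). It was at 2143, 2587, 1574 and 1318 CPM in WT solvent, 842, 860, 1099 and 852 CPM in WT at 72 h, 2970, 2481, 2690 and 2329 CPM in mut solvent and 1623, 1474, 1616 and 1963 CPM in mut at 72 h. WT clone 27 was lower than clone 2 in solvent, and the genotypes overlapped there but not at 72 h. FTH1 fell 2.03-fold in WT at 72 h (log2 -1.02 ± 0.15, adjusted p = 1.91e-06) and by 0.65 ± 0.15 on the log2 scale in mut (adjusted p = 0.0022). It was higher in mut at 72 h by 0.87 ± 0.15 (adjusted p = 3.57e-05) and in solvent by 0.50 ± 0.15 (adjusted p = 0.0276), the latter not called without series 27-2 (adjusted p = 0.13). The light chain FTL was called in no comparison.

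**Figure D2:**
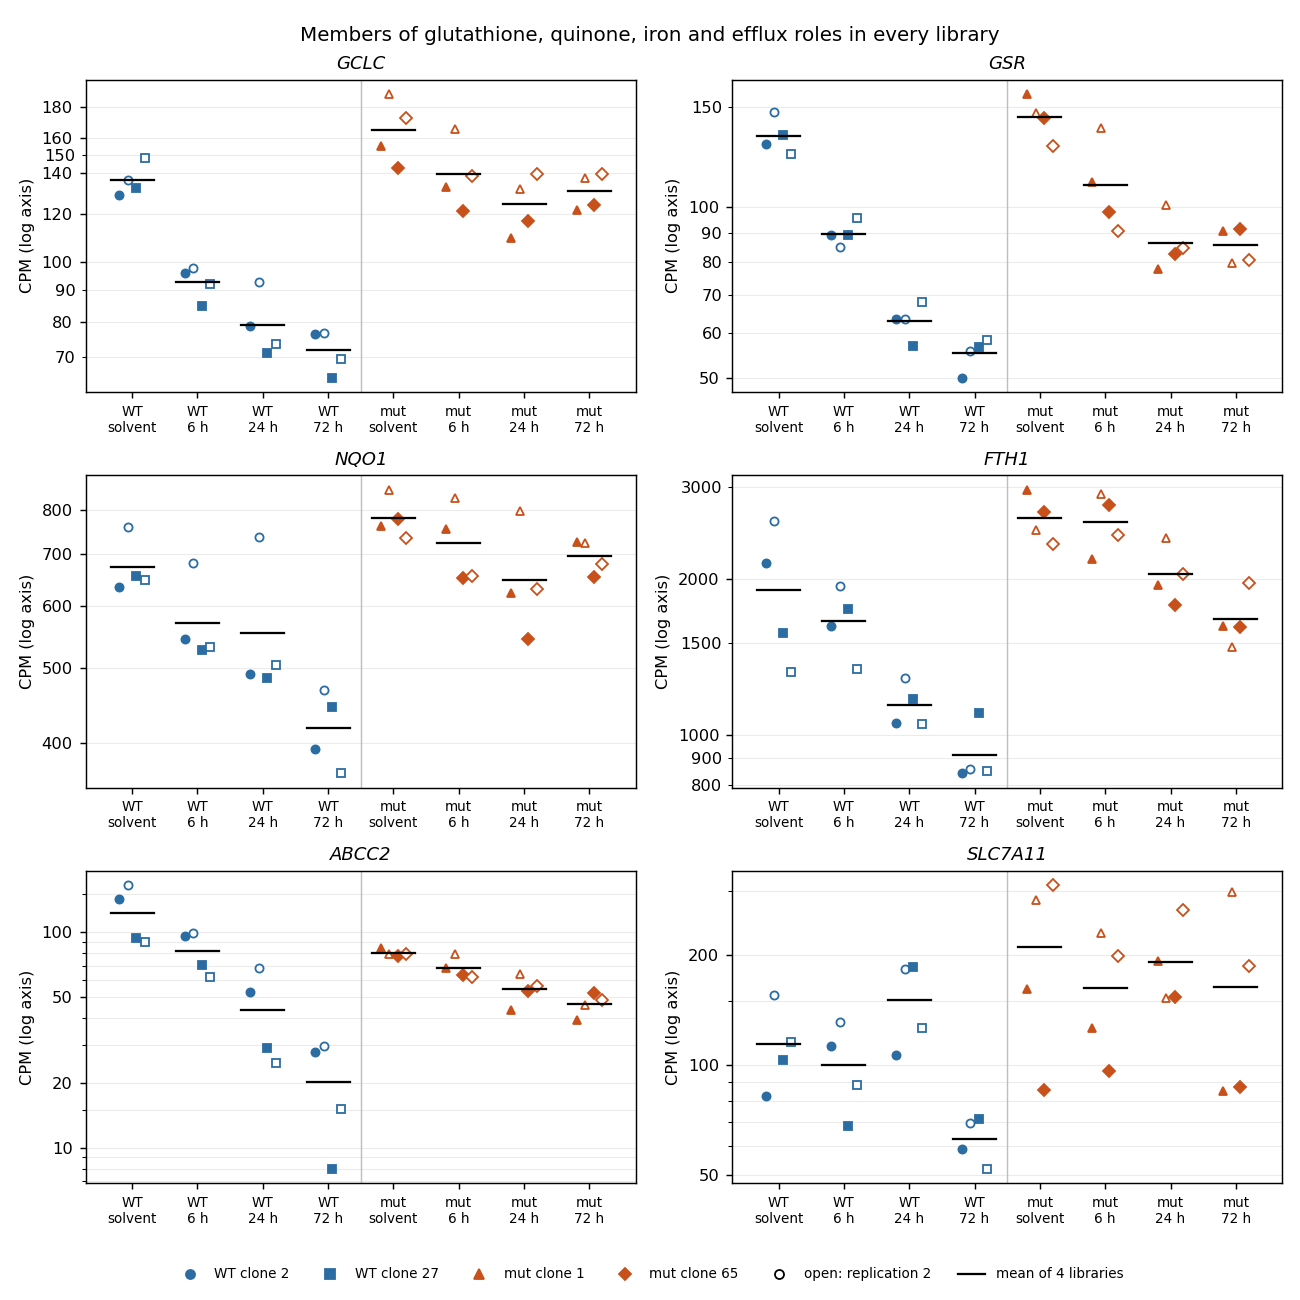
GCLC, GSR, NQO1, FTH1, ABCC2 and SLC7A11 in CPM (log axes) in the 32 libraries, by genotype and hours of TGFβ1, with marker shape for the clone, filled markers for replication 1, open markers for replication 2 and a line at the mean of 4 libraries. In WT, GCLC drops from 129 to 148 CPM in solvent to 64.7 to 76.5 CPM at 72 h, and in mut from 143 to 189 CPM in solvent to 122 to 139 CPM.

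The 4 aldo-keto reductases had the largest differences between genotypes among the members in solvent and at 72 h. AKR1C1, AKR1C2 and AKR1C3 reduce steroid ketones and lipid aldehydes and lie together on chromosome 10 (4963253 to 5107686, GRCh38). AKR1C2 was at 45.2, 76.5, 33.9 and 58.9 CPM in WT solvent and 150, 145, 134 and 112 CPM in mut solvent. At 24 h it reached 153, 235, 112 and 123 CPM in WT and 402, 376, 330 and 391 CPM in mut, and at 72 h it stood at 78.9, 106, 51.4 and 57.7 CPM in WT and 439, 442, 377 and 493 CPM in mut. Mut libraries exceeded all WT libraries at each of these times, and the WT level was highest at 24 h in every series.

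AKR1C2 was 2.64-fold higher in mut in solvent (log2 1.40 ± 0.23, adjusted p = 9.09e-05) and 6.19-fold higher at 72 h (log2 2.63 ± 0.22, adjusted p = 7.03e-10). It rose 2.93-fold in WT (adjusted p = 1.99e-06) and 2.78-fold in mut (adjusted p = 1.38e-05) at 24 h. At 72 h it was 3.24-fold above solvent in mut (log2 1.70 ± 0.22, adjusted p = 1.26e-06). In WT the log2 change at 72 h was 0.47 (adjusted p = 0.0959), called with TMM scaling (0.63, adjusted p = 0.0334) and with the series as a block (adjusted p = 0.00172). The changes at 72 h differed by 1.23 ± 0.32 (adjusted p = 0.0116, and 0.0604 with replications summed per clone).

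AKR1C1 was at 31.5, 52.9, 19.7 and 38.5 CPM in WT solvent and 26.6, 47.4, 19.0 and 24.1 CPM in WT at 72 h, against 76.1, 67.5, 69.3 and 57.1 CPM in mut solvent and 115, 106, 110 and 132 CPM in mut at 72 h. The change at 72 h was downward in 4 of 4 WT series, with overlapping groups, and upward in 4 of 4 mut series. AKR1C1 was 4.20-fold higher in mut at 72 h (log2 2.07 ± 0.28, adjusted p = 1.37e-06), and the rise in mut was 0.78 ± 0.25 (adjusted p = 0.023, and 0.0686 without series 1-2). The changes in mut and WT differed by 1.05 (adjusted p = 0.078), which was called with the series as a block (1.07, adjusted p = 0.00013). In solvent AKR1C1 was higher in mut by 1.02 ± 0.28 (adjusted p = 0.0138).

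AKR1C3, which also makes prostaglandin F2α and testosterone, followed the same order, with means of 56.6 ± 16.9 CPM (SD, n = 4) in WT solvent, 57.2 ± 13.8 in WT at 72 h, 106 ± 10.8 in mut solvent and 189 ± 25.3 in mut at 72 h. The mut libraries were above the WT libraries at both times. AKR1C3 was 1.93-fold higher in mut in solvent (adjusted p = 0.0003) and 3.37-fold at 72 h (log2 1.75 ± 0.17, adjusted p = 6.66e-09). Its change at 72 h was 0.03 in WT and 0.84 ± 0.16 in mut (adjusted p = 0.00032), and the changes differed by 0.80 ± 0.24 (adjusted p = 0.0272, but 0.0654 with TMM scaling and 0.0725 without series 27-2). AKR1C1 and AKR1C2 are near-identical copies and AKR1C3 is a more distant paralog, so reads may have been divided unevenly or lost between them, most of all between the first pair, and their values are not independent.

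AKR1B10, a retinaldehyde and aldehyde reductase, was far scarcer and moved the other way with TGFβ1. It was at 1.22, 1.56, 1.17 and 1.45 CPM in WT solvent, 0.233, 0.0914, 0.308 and 0.243 CPM in WT at 72 h, 7.58, 4.29, 4.21 and 4.85 CPM in mut solvent and 1.44, 0.845, 1.45 and 1.61 CPM in mut at 72 h. Mut exceeded WT at both times and the 72 h libraries lay below the solvent libraries in both genotypes. AKR1B10 was 3.79-fold higher in mut in solvent (log2 1.92 ± 0.27, adjusted p = 1.39e-05) and 6.02-fold at 72 h (log2 2.59 ± 0.54, adjusted p = 0.00038). The fall at 72 h was 6.29-fold in WT (log2 -2.65 ± 0.55, adjusted p = 0.000186) and 3.96-fold in mut (log2 -1.99 ± 0.27, adjusted p = 2.77e-06), and the difference of the falls, 0.67, was not called (adjusted p = 0.52). The carbonyl reductase CBR1 fell in WT at 72 h (log2 -0.46 ± 0.10, adjusted p = 0.00031) and was higher in mut then (log2 0.48, adjusted p = 0.000282).

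**Figure D3:**
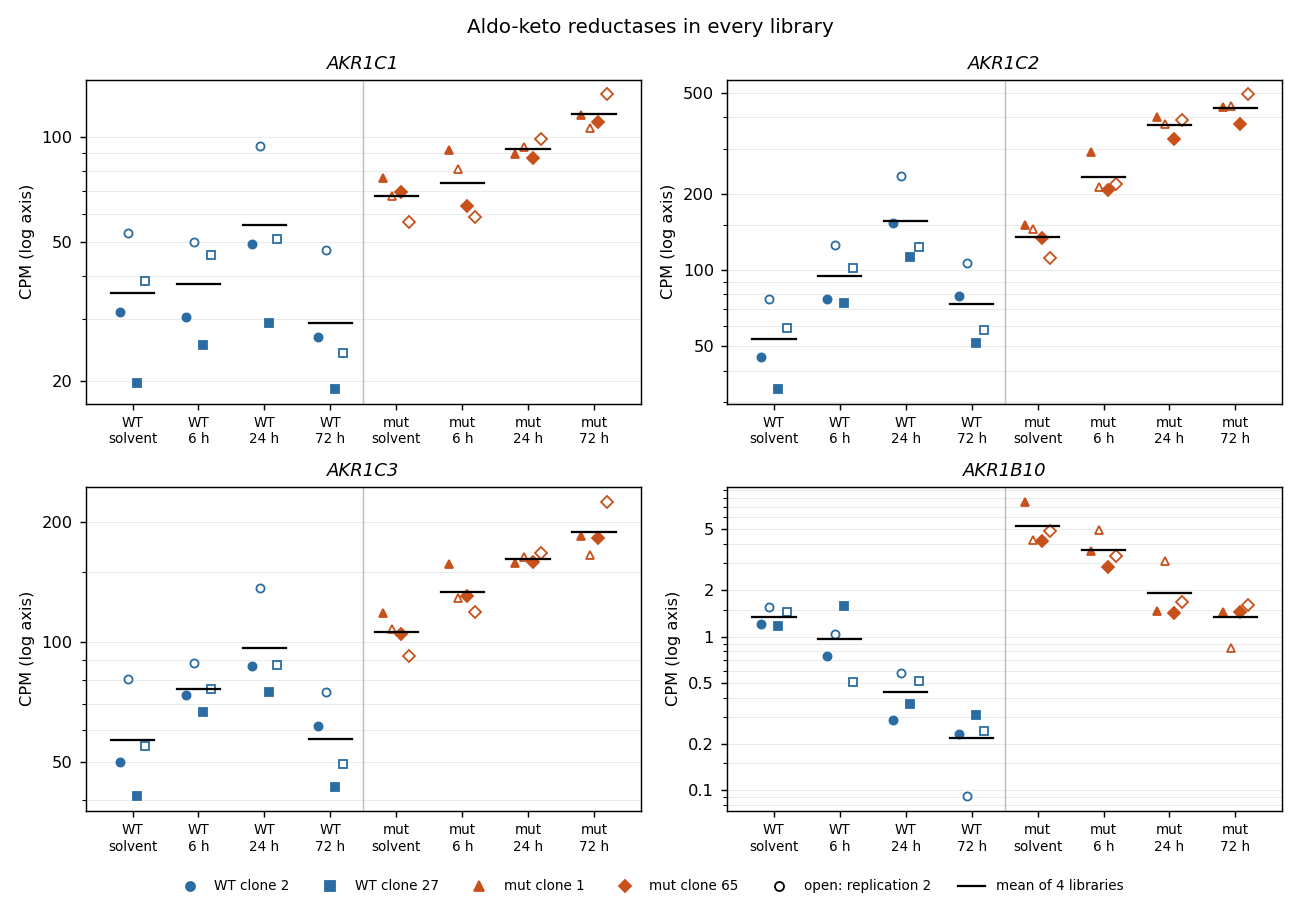
The 4 aldo-keto reductase members in CPM (log axes) in the 32 libraries, by genotype and hours of TGFβ1, with marker shape for the clone, filled markers for replication 1, open markers for replication 2 and a line at the mean of 4 libraries. All mut libraries lie above all WT libraries of the same time for AKR1C2 in solvent and at 72 h, and AKR1B10 drops below 0.31 CPM in WT at 72 h.

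Among genes for conjugation, hydrolysis and efflux, ABCC2, which pumps glutathione conjugates out of the cell, fell most. It was at 142, 166, 94.3 and 89.9 CPM in WT solvent, 53.0, 68.5, 28.9 and 24.7 CPM at 24 h and 27.7, 29.6, 7.95 and 15.1 CPM at 72 h. In mut it was at 84.9, 79.2, 77.9 and 79.1 CPM in solvent and 39.2, 46.1, 52.4 and 48.3 CPM at 72 h. WT clone 2 was higher than clone 27 throughout, and at 72 h all WT libraries lay below all mut libraries. The fall at 72 h was 6.77-fold in WT (log2 -2.76 ± 0.30, adjusted p = 2.21e-08). In mut the change was -0.80 ± 0.26 (adjusted p = 0.0252, and 0.0863 without series 1-2). The changes differed by 1.96 ± 0.40 (adjusted p = 0.00193, and 0.065 with replications summed per clone).

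EPHX1, the microsomal epoxide hydrolase whose ARE core is printed above, was at 132, 177, 122 and 112 CPM in WT solvent and 199, 194, 179 and 181 CPM in mut solvent, without overlap (log2 0.49 ± 0.11, adjusted p = 0.00394). At 72 h it was at 71.1 to 85.1 CPM in WT and 137 to 177 CPM in mut (log2 0.98 ± 0.12, adjusted p = 2.26e-07). MGST1, a membrane glutathione transferase, was at 325 to 386 CPM in WT and 480 to 559 CPM in mut at 72 h, and its changes differed by 0.53 ± 0.11 (adjusted p = 0.00262). GSTP1, an abundant cytosolic glutathione transferase with an AP-1 site in its ARE core, fell by 0.39 on the log2 scale at 72 h in WT (adjusted p = 0.000173) and in mut (adjusted p = 0.000632). UGDH, which makes the UDP-glucuronate used for conjugation and for matrix glycans, was the other member that rose in WT at 72 h (log2 0.62 ± 0.11, adjusted p = 5.44e-05), and it was lower in mut then (log2 -0.34, adjusted p = 0.0164). SOD1 and CAT, which remove superoxide and hydrogen peroxide, fell in WT at 24 and 72 h, SOD1 by 0.32 and CAT by 0.49 on the log2 scale at 72 h, and neither was called at 24 h with TMM scaling. In mut CAT fell as well (log2 -0.29 at 24 h and -0.37 at 72 h), while SOD1 was not called. OSGIN1, at 3.36 to 8.13 CPM, was called in no comparison.

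Counted together, 2 members rose and 6 fell in WT at 6 h, where 5.13% of all 14865 genes were called higher and 11.9% lower. At 24 h 4 rose (14.1% of all genes) and 21 fell (38.0%), and at 72 h 2 rose (13.9%) and 22 fell (38.4%). The median log2 change at 72 h was -0.33 over the 39 members and -0.19 over all genes. Under library-size scaling the median of all genes was also below -0.1 in WT at 24 h (-0.18). With TMM scaling, which centres most genes, 3 members rose and 4 fell at 6 h (7.01% and 6.18% of all genes), 9 rose and 8 fell at 24 h (23.5% and 23.2% of all genes) and 4 rose and 18 fell at 72 h (21.5% and 23.3%), and the medians at 72 h were -0.17 and -0.03. Of the 25 members called at 24 h, 12 were called with TMM scaling, and of the 24 at 72 h, 20 were. The count of falls at 24 h thus depended on the scaling far more than that at 72 h. Falls numbered 5, 18 and 21 at the successive times without series 27-2, and the series as a block gave 14 called members for 6 h, 3 higher and 11 lower (7.78% and 18.1% of all genes in that model). The share of all genes called without series 27-2 is not given, so those falls do not set the members apart.

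In mut cells fewer members were called in each comparison with solvent. At 6 h AKR1C2 rose (2.06% of all genes rose) and GSR fell (4.94% fell). At 24 h 2 rose (6.75%) and 8 fell (17.1%), and at 72 h the 3 AKR1C genes rose (7.81%) and 10 members fell (16.3%), with a median of -0.09 over members and over all genes. With TMM scaling 4 rose and 5 fell at 24 h (9.26% and 8.04% of all genes), and 6 rose and 8 fell at 72 h (10.7% and 9.91%). A model with the series as a block called more of all genes too. It gave 3 rises and 6 falls among members for 6 h (4.92% and 11.6% of all genes), 5 and 14 for 24 h (9.89% and 25.1%) and 7 and 14 for 72 h (10.999% and 22.9%). Without series 1-2, 3 members fell and 0 rose at 6 h, 2 rose and 8 fell at 24 h, and 4 rose and 8 fell at 72 h. For that fit the share of all genes called is not given, so its counts do not set the members apart. A smaller count in mut is not by itself a difference between genotypes, which the comparison of the changes tests.

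Between genotypes the members called were mostly higher in mut. In solvent 8 were higher (6.38% of all genes) and 0 lower (6.32%) by limma-voom and by edgeR with TMM scaling. The 8 were NFE2L2, GPX4, FTH1, EPHX1, AKR1B10 and the 3 AKR1C genes. An unadjusted p under 0.05 was found for 13 of the 39 members and for 3901 of all 14865 genes. At 6 h 16 were higher (11.3%) and 2 lower (10.0%), at 24 h 18 were higher (24.7%) and 2 lower (12.2%), and at 72 h 25 were higher (26.0%) and 3 lower (13.2%). The median difference at 72 h was 0.36 over the members and 0.10 over all genes. The 3 lower at 72 h were HMOX1, BACH1 and UGDH. With TMM scaling 21 were higher and 3 lower at 72 h (18.7% and 17.8% of all genes), and the medians were 0.27 and 0.01. In 23 of the 25 called higher and 2 of the 3 called lower at 72 h, the groups did not overlap. The matching share over all called genes was not computed, so this count does not set the members apart. Members higher and lower in mut numbered 7 and 0 in solvent, 13 and 1 at 6 h, 18 and 2 at 24 h, then 24 and 1 at 72 h without series 27-2. Without series 1-2 they numbered 8 and 0, 13 and 2, 15 and 2, then 22 and 2. The shares above belong to the fit of all libraries. Shares without a series are not given, so these counts do not set the members apart.

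For the difference between the changes, 0 members were called at 6 h by limma-voom (0.00673% of all genes were called higher and 0.0673% lower). An unadjusted p under 0.05 was found there for 4 members and for 764 of all 14865 genes. HMOX1 was called at 6 h by DESeq2 and with the series as a block. At 24 h HMOX1 was called lower (1.93%) and no member higher (7.72%), and with the series as a block 7 were higher and 2 lower (14.1% and 4.64% of all genes in that model). At 72 h 13 were higher (9.40%), meaning that the change in mut was the more positive one, and HMOX1 was lower (2.92%). The median was 0.28 over the members and 0.10 over all genes. With TMM scaling 6 were called, namely GCLC, GSR, AKR1C2, MGST1, ABCC2 and HMOX1, against 4.53% of all genes higher and 4.15% lower. The 72 h count was 10 higher and 1 lower without series 27-2 and 14 higher and 0 lower without series 1-2, where HMOX1 was not called. No share of all genes is given for these 2 fits, so their counts do not set the members apart. These comparisons share their solvent and TGFβ1 libraries with those within each genotype.

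**Figure D4:**
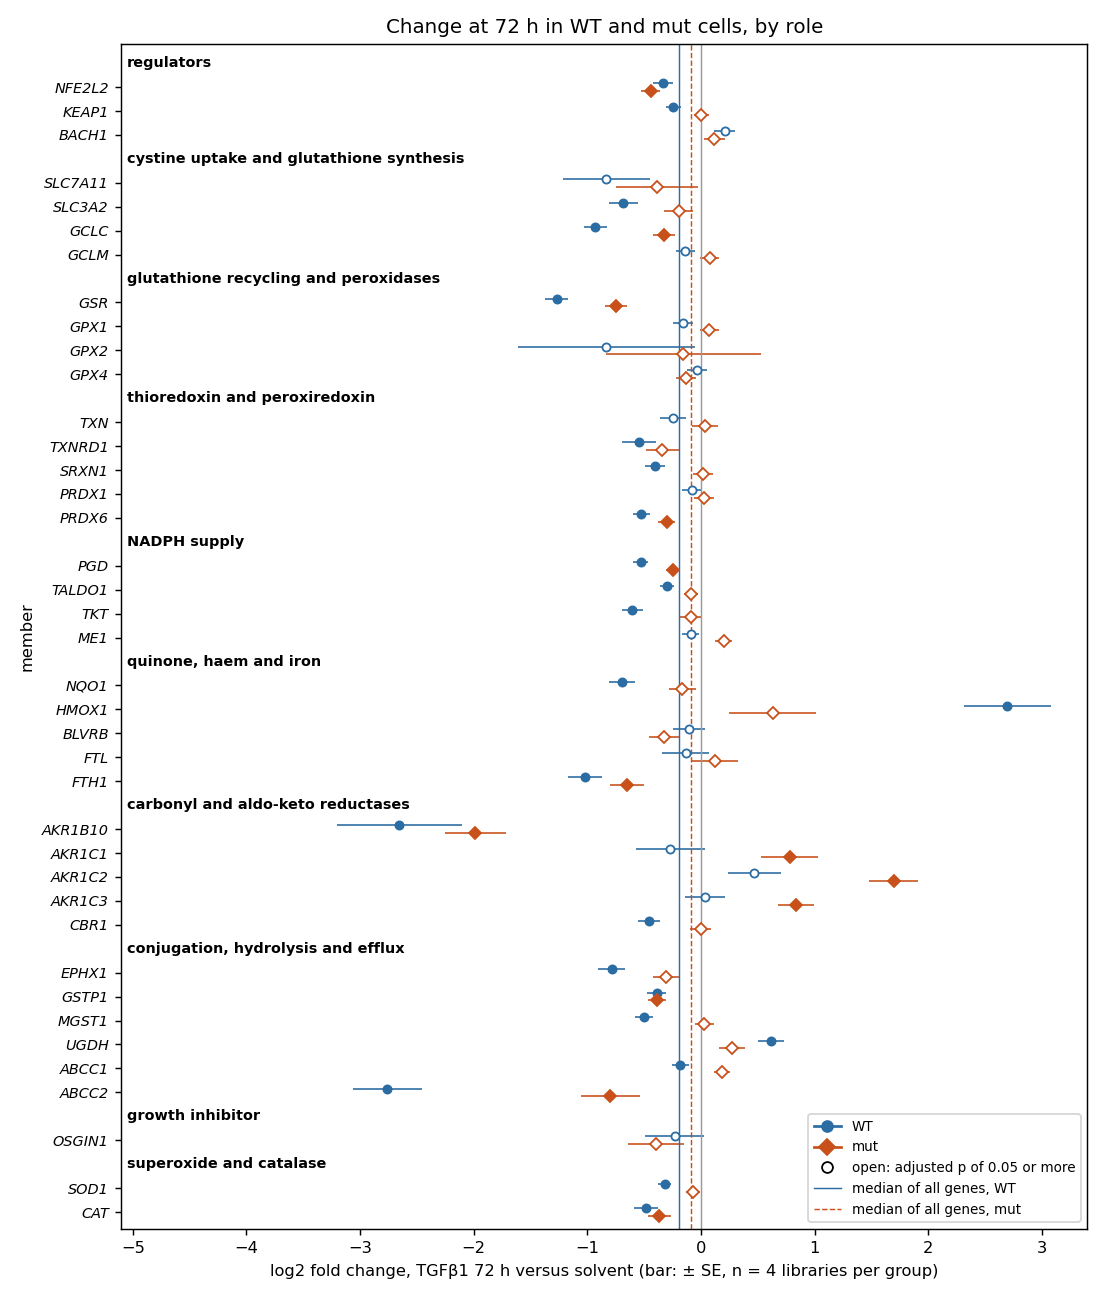
Log2 change between 72 h of TGFβ1 and solvent, with its SE, for the 39 measured members grouped by role, in WT and in mut (n = 4 libraries each), with open markers where the adjusted p is 0.05 or more and lines at the median of all genes. Most WT points lie left of the median of all genes at -0.19, HMOX1 stands at 2.70 in WT, and AKR1C2 stands at 1.70 in mut.

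By role at 72 h, where 26.0% of all genes were higher in mut, the members higher in mut included all 4 genes for cystine uptake and glutathione synthesis, all 4 for NADPH supply and all 5 carbonyl and aldo-keto reductases. They included 3 of the 5 in the thioredoxin group, 3 of the 6 for conjugation, hydrolysis and efflux, 2 of the 4 for glutathione recycling and peroxidases, 2 of the 5 for quinones, haem and iron and 1 of the 3 regulators. With TMM scaling, where 18.7% of all genes were higher in mut, GCLM, ME1, TXNRD1 and NFE2L2 were not called. Without series 1-2, NFE2L2 and SLC7A11 were among those not called. The 11 members with an ARE core in their window had 8 called higher in mut at 72 h with a median of 0.43, and the 19 with a window without a core had 11 called higher with a median of 0.27, beside a median of 0.10 over all genes. These counts used library-size scaling, and GCLM, ME1 and TXNRD1 are among the members with a core. The difference between these groups was not tested. Bases outside the window were not searched, so the group without a core, which holds NQO1 and GCLC, may have AREs farther away. Members without a window, such as HMOX1, are in neither group.

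The mean over the 39 members, as log2 of CPM plus 1, was 6.70 ± 0.12 (SD, n = 4) in WT cells given solvent. With TGFβ1 it was 6.64 ± 0.055 after 6 h, 6.60 ± 0.13 after 24 h and 6.35 ± 0.062 after 72 h. The mut cells held 6.89 ± 0.061 without TGFβ1, 6.86 ± 0.079 after 6 h, 6.81 ± 0.076 after 24 h and 6.81 ± 0.086 after 72 h. The WT libraries at 72 h lay between 6.29 and 6.44 and the mut libraries between 6.75 and 6.94, so these groups did not overlap. For the 7 reference NRF2 targets alone (listed below), the WT mean was 6.61 in solvent, 6.84 at 24 h and 6.41 at 72 h. Their mut mean was 6.84 in solvent, 6.81 at 24 h and 6.75 at 72 h. At 72 h the genotypes overlapped in this mean (WT series 2-2 at 6.55, mut series 65-1 at 6.53). The mean over all genes moved from 4.30 in solvent to 4.17 in WT and 4.23 in mut at 72 h. In bulk RNA, fewer cells expressing a gene and less RNA per cell cannot be told apart.

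**Figure D5:**
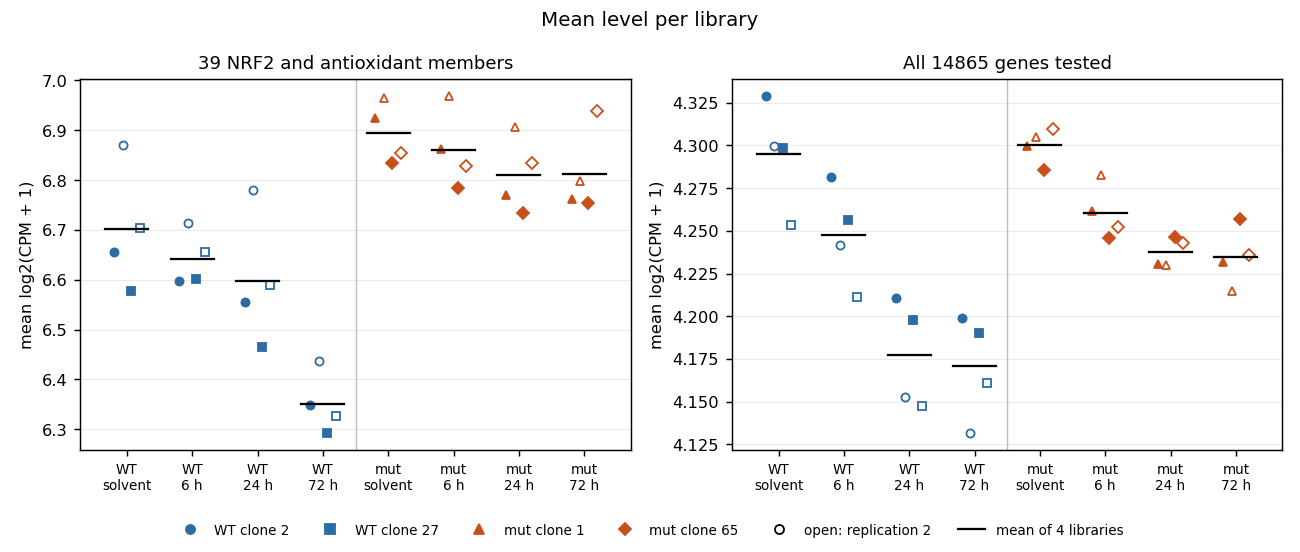
Mean log2 of CPM plus 1 over the 39 members and over all 14865 tested genes in each of the 32 libraries, by genotype and hours of TGFβ1. The members' mean falls in WT to between 6.29 and 6.44 at 72 h and lies between 6.75 and 6.94 in mut.

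A further list of 64 genes of the pathway and of oxidant production, of which 59 were tested, was counted in the same way. At 72 h 10 rose and 26 fell in WT (13.9% and 38.4% of all genes), 3 rose and 17 fell in mut (7.81% and 16.3%), and 22 were higher and 5 lower in mut than in WT (26.0% and 13.2%). With TMM scaling these counts were 13 and 16 in WT (21.5% and 23.3% of all genes), 4 and 11 in mut (10.7% and 9.91%) and 16 and 7 between genotypes (18.7% and 17.8%). Of 35 other antioxidant and NRF2 target genes tested, 3 rose and 23 fell in WT at 72 h, against 3 and 14 with TMM scaling. Pirin (PIR), an iron-binding NRF2 target, was at 8.38, 10.4, 9.96 and 9.86 CPM in WT solvent and 3.38, 4.20, 3.60 and 4.27 CPM at 72 h, and at 14.3, 12.6, 14.8 and 11.04 CPM in mut solvent and 10.8, 9.79, 10.1 and 11.2 CPM at 72 h. Mut exceeded WT at both times, and PIR was higher in mut at 72 h by 1.43 ± 0.16 (adjusted p = 7.18e-08), with a difference between the changes of 0.99 ± 0.20 (adjusted p = 0.00198). The efflux pump ABCC3 was higher in mut by 0.85 ± 0.11 in solvent (adjusted p = 5.55e-06) and by 1.53 ± 0.11 at 72 h (adjusted p = 1.52e-10). Of the 10 other regulators 4 rose and 1 fell in WT at 72 h (7 and 0 with TMM scaling), among them the small MAF genes MAFF (0.32) and MAFG (0.31) and SQSTM1 (0.38), whose product binds KEAP1.

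Among 14 tested genes of oxidant sources, 3 rose and 2 fell in WT at 72 h (13.9% and 38.4% of all genes). At 72 h 2 were higher and 2 lower in mut than in WT (26.0% and 13.2% of all genes), with log2 differences from -3.46 to 2.62 over the 14. The calcium-activated oxidase NOX5 was at 1.49 to 4.11 CPM in WT solvent and 13.7 to 19.1 CPM in WT at 72 h. In mut it was at 0.724 to 2.29 CPM in solvent and 2.97 to 4.26 CPM at 72 h. It rose by 2.79 ± 0.25 in WT (adjusted p = 5.38e-10) and by 1.65 ± 0.33 in mut (adjusted p = 0.000558), and was lower in mut at 72 h by 2.07 (log2 -2.07 ± 0.20, adjusted p = 8.17e-09). CD68, the macrophage-associated gene of the marker list, also moved, by 0.73 in WT at 72 h and by -1.02 between genotypes at 72 h, while PTPRC and CD3E stayed under the filter. Its part in these results was not tested.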

How the data were processed

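Counts per gene were made and deposited by the authors for 32 libraries. Total RNA went through an unstranded TruSeq kit and paired-end sequencing, reads were trimmed with Trimmomatic, and STAR mapped them to Ensembl GRCh38 and counted them (versions not given in the sources used here). Counts were used as deposited, and 0 per-sample columns were left unused. Of 17788 identifiers, 17763 were named from GENCODE. Library totals were 39702412 to 54651906.

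Genes were kept by filterByExpr (edgeR 4.0.16, minimum count 10, total 15). limma 3.58.1 (R 4.3.3) with voom, library-size scaling and one coefficient per group was fitted over all libraries, and p-values were Benjamini-Hochberg adjusted over 14865 genes (threshold 0.05). CPM is the count scaled to a library total of 1000000. The fits were tested on simulated counts of independent libraries, with known changes in WT at 72 h only. The simulation held no series or clone effect, so it does not test the fits under the correlation within series given below. Alternatives were TMM factors, edgeR's quasi-likelihood test, DESeq2 1.42.0, other low-count filters, left-out libraries and series, replications summed per clone, and the series as a block. Labels give a clone and replication to each library, which pairs times within a genotype. Deviations from the group means of libraries of one series correlated at 0.445 on average (-0.105 to 0.805). No 2 libraries of a group agreed within sampling noise (chi-square per degree of freedom at least 11.6).

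The members and lists were chosen with earlier results of these data known. By rule, values by library were given for the 3 regulators, 7 reference NRF2 targets (NQO1, HMOX1, GCLM, GCLC, TXNRD1, SRXN1, SLC7A11) and the 5 called members (mean of at least 1 CPM) with the largest absolute change in 5 comparisons. EPHX1 and PIR were given by library after their values were seen. Promoter windows came from RefSeq and were searched for fixed motifs.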

Additional observations from a re-analysis of the deposited data

Results flagged for a closer look

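Among 144 groups of 4 libraries (17 members and their mean in 8 groups), 7 had 1 library standing apart by Dixon's test, where chance gives about 1 in 20. NFE2L2 in WT at 24 h was highest in series 27-1 (169 CPM). NQO1 was highest in series 2-2 in WT at 6 h (683 CPM) and at 24 h (738 CPM), and SRXN1 in WT solvent was highest in the same series (173 CPM). HMOX1 in mut at 72 h reached 7.71 CPM in series 65-2, FTH1 in WT at 72 h 1099 CPM in series 27-1, and AKR1C2 in mut at 6 h 292 CPM in series 1-1.

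The log2 change with TGFβ1 differed between genotypes by limma-voom for 15 results. HMOX1 differed by -2.44 at 24 h and by -2.07 at 72 h. At 72 h the change in mut was the more positive for ABCC2 (1.96), AKR1C2 (1.23), AKR1C3 (0.80), GCLC (0.60), NQO1 (0.53), MGST1 (0.53), GSR (0.52), TKT (0.52), CBR1 (0.45), SRXN1 (0.42), ABCC1 (0.37), PGD (0.28) and SOD1 (0.25).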

How the results depend on the processing

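None of the 44 single-member results carried through the alternatives changed sign, but with TMM scaling the members called in WT at 24 h went from 4 higher and 21 lower to 9 higher and 8 lower. With the series as a replicate block, 14 members were called in WT at 6 h, 9 in mut at 6 h, 19 in mut at 24 h, 21 in mut at 72 h, and 1 and 9 for the difference between the changes at 6 and 24 h. No paired analysis was possible between genotypes because each series lies within 1 genotype. With replications summed per clone, 0 members were called in mut at 6 h, 0 for the difference between the changes at 24 h and 5 for 72 h. With TMM factors and the replicate block together, an alternative chosen after seeing the data, mut gave 7, 16 and 20 for 6, 24 and 72 h, and the difference between the changes gave 4 for 24 h. For that difference DESeq2 called 1, 2 and 8 for 6, 24 and 72 h, and TMM scaling and edgeR's quasi-likelihood test called 6 each at 72 h. Of the 14 members called there at 72 h, 8 were called with every single library left out. Leaving out single libraries gave 0 to 7 in mut at 6 h (0 without series 65-1 or 65-2 at 6 h, 7 without 1-2 at 6 h), 1 to 3 for the difference at 24 h (3 without WT 24 h series 2-2) and 9 to 16 at 72 h (9 without WT solvent 2-2 or mut solvent 65-2). The share of all genes called in each setting is not given beside these counts. They show how the calls depend on the processing and do not set the members apart. Taken as the median over members in place of the mean, the level was 7.03, 6.75 and 6.86 in WT solvent, 6 and 24 h, and 7.20, 7.15, 7.14 and 7.18 in mut solvent, 6, 24 and 72 h. With TMM scaling the mean was 6.43 in WT at 72 h and 6.82 in mut solvent. Only medians and TMM means that lay at least an SD of the group from its main mean are listed. A TMM mean is not to be set against a mean of another group under library-size scaling. The cause of the differences between settings was not tested. Depth was not limiting for most members, but GPX2 and AKR1B10 rest on few counts.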
